A study of Mus musculus with 12 samples.

Results

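Chemokines are small secreted proteins that steer the movement of leukocytes and progenitor cells, and bone marrow stromal cells are among their main sources in the marrow. The genes described here are 8 chemokine genes, Ccl2, Ccl7, Ccl5, Cxcl1, Cxcl5, Cxcl10, Cxcl12 and Cx3cl1, taken by name from the 56980 genes of the count matrix. All 8 were found by their Ensembl identifiers. They were measured by bulk RNA-Seq in 12 libraries of W-20 cells, a mouse bone marrow stromal line, in 4 groups of 3 libraries each. WT cells received vehicle or 50 nM parathyroid hormone (PTH) for 2 h, and cells whose library titles read Y428F received the same vehicle or PTH for the same time. Y428F stands for a change of a tyrosine of the transcriptional coactivator YAP to phenylalanine. The study describes stable lines selected as positive clones with puromycin that carry Flag-tagged YAP with Y428F alone or with S381A and Y428F. Its account of the sequencing names the S381A/Y428F cells, while the titles give Y428F only, so which of the lines was sequenced is not settled by the labels. A genotype field of the same libraries reads WT, so the groups rest on the titles. No library of cells with introduced wild-type YAP, or with S381A alone, was analysed here, so the mutation, the introduced YAP and the derivation of the line cannot be told apart. The labels do not say whether the libraries of a group came from separate cultures, and p-values measure the spread between these libraries. Estimated counts per library summed to 17127897 to 19057319, with a median of 17740980.

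Chemokines are named for the spacing of the cysteines near their amino terminus. CC chemokines such as Ccl2, Ccl7 and Ccl5 attract mainly monocytes and T cells, whereas CXC chemokines attract neutrophils (Cxcl1, Cxcl5), activated T cells (Cxcl10) or hematopoietic progenitors (Cxcl12), and Cx3cl1, fractalkine, is made as a membrane-bound protein that can be shed. In stromal cells many of these genes are induced by inflammatory cytokines through NF-kappaB, Cxcl10 and Ccl5 also by interferons, while Cxcl12 is a constitutive product of marrow stroma that retains hematopoietic stem cells in their niche. PTH is known to raise Ccl2 in cells of the osteoblast lineage, where the protein attracts osteoclast precursors.

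The genes lie on 4 chromosomes of GRCm39 as annotated in GENCODE vM39. Ccl2 (ENSMUSG00000035385.6, chr11:81926397-81928279) and Ccl7 (ENSMUSG00000035373.3, chr11:81936532-81938351) were neighbours on the plus strand, 8253 bp apart. Ccl5 (ENSMUSG00000035042.3, chr11:83416602-83425942, minus strand) was on the same chromosome. Cxcl5 (ENSMUSG00000029371.8, chr5:90907186-90909483, plus strand), Cxcl1 (ENSMUSG00000029380.12, chr5:91039094-91040974, plus strand) and Cxcl10 (ENSMUSG00000034855.14, chr5:92494497-92496748, minus strand) were on chromosome 5, Cxcl12 (ENSMUSG00000061353.12, chr6:117144945-117158328, plus strand) on chromosome 6 and Cx3cl1 (ENSMUSG00000031778.14, chr8:95498637-95509055, plus strand) on chromosome 8. Genes annotated on the opposite strand overlap Ccl5, Cxcl5, Cxcl10 (Art3) and Cx3cl1. Because the sources used here do not say whether counting used strand, reads of these partners cannot be told apart. The same holds for genes of the lists described below, among them Ccl25 (Elavl1), Ccl9 (E230016K23Rik) and Ccr10 (Cntnap1).

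RefSeq promoter sequences on GRCm38.p6, an older build than that of the gene positions above, were at hand for 4 of the 8 genes, Cxcl1, Cxcl10, Cxcl12 and Cx3cl1. The 250 bases before the start of Cxcl1 (chr5:90890995-90891244, plus strand) and Cxcl10 (chr5:92348890-92349139, minus strand) are shown because these 2 genes carry the sequences of the inflammatory and interferon pathways whose transcription factor genes are described below. They are written 5′ to 3′ on the strand of the gene, and capitals mark matches to the NF-kappaB consensus and, in Cxcl10, first the interferon-stimulated element, written here as GAAA followed after 2 bases of any kind by GAAA.
Cxcl1: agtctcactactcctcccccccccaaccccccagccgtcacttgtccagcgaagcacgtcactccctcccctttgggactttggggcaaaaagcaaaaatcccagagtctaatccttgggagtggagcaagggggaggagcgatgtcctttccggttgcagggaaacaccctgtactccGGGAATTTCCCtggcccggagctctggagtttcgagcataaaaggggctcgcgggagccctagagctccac
Cxcl10: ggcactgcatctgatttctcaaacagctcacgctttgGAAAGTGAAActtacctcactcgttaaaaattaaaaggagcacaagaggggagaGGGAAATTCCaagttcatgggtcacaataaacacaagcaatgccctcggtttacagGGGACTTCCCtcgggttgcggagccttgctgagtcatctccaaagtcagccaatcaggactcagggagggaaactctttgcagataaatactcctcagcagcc

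Both strands of each window were searched, and a match is a description of letters only. In Cxcl1 the NF-kappaB consensus matched 2 times in overlap, once on each strand, beginning 71 and 70 bases before the start. In Cxcl10 it matched 2 separate stretches, 159 and 103 bases before the start, and the interferon element began at 213. An NF-kappaB match was present in 3.9% and an interferon element in 2.98% of 32851 promoter windows of this length. The cAMP response element TGACGTCA, the full site bound by the CREB family of factors, was in none of the 4 windows and in 1.55% of all. Its half-site TGACG occurred 2 times in Cxcl1 and 1 time in Cxcl12, and in 17.8% of all windows. The AP-1 letters TGANTCA occurred once in Cxcl10, 74 bases before the start, and in 6.75% of all windows, and the window of Cx3cl1 held none of these motifs.

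Cxcl12 was by far the most abundant of these transcripts. Levels are given as CPM, the usual depth-scaled unit, with TMM factors from the 12 libraries, and levels of different genes are compared as CPM per kb of exon. In WT cells with vehicle, Cxcl12 was at 71.1 CPM per kb, followed by Ccl7 at 17.9, Ccl2 at 13, Cxcl10 at 9.3, Ccl5 at 7.8, Cx3cl1 at 5.3 and Cxcl1 at 0.245. Cxcl12 stood clear of the others, with an SD of 4.49 CPM per kb. Ccl7 and Ccl2 had SDs of 3.08 and 1.13, and Cxcl10 and Ccl5, with SDs of 0.412 and 2.35, were closer to each other than the spread of Ccl5. In Y428F cells with vehicle the order was Cxcl12 at 48.8 CPM per kb, Ccl2 at 31.6, Ccl7 at 20.3, Cxcl10 at 3.89, Ccl5 at 1.66 and Cx3cl1 at 1.31, so that Ccl2 stood above Ccl7 there. Cxcl5 had 0 counts in all 12 libraries, which allows a level of up to 0.0139 CPM over the 12 libraries together. Thus 6 of the 8 genes averaged at least 1 CPM, Cxcl1 was detected below that level and Cxcl5 was not detected, and 7 of the 8 had the total of 10 counts needed to be tested.

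**Figure D1:**
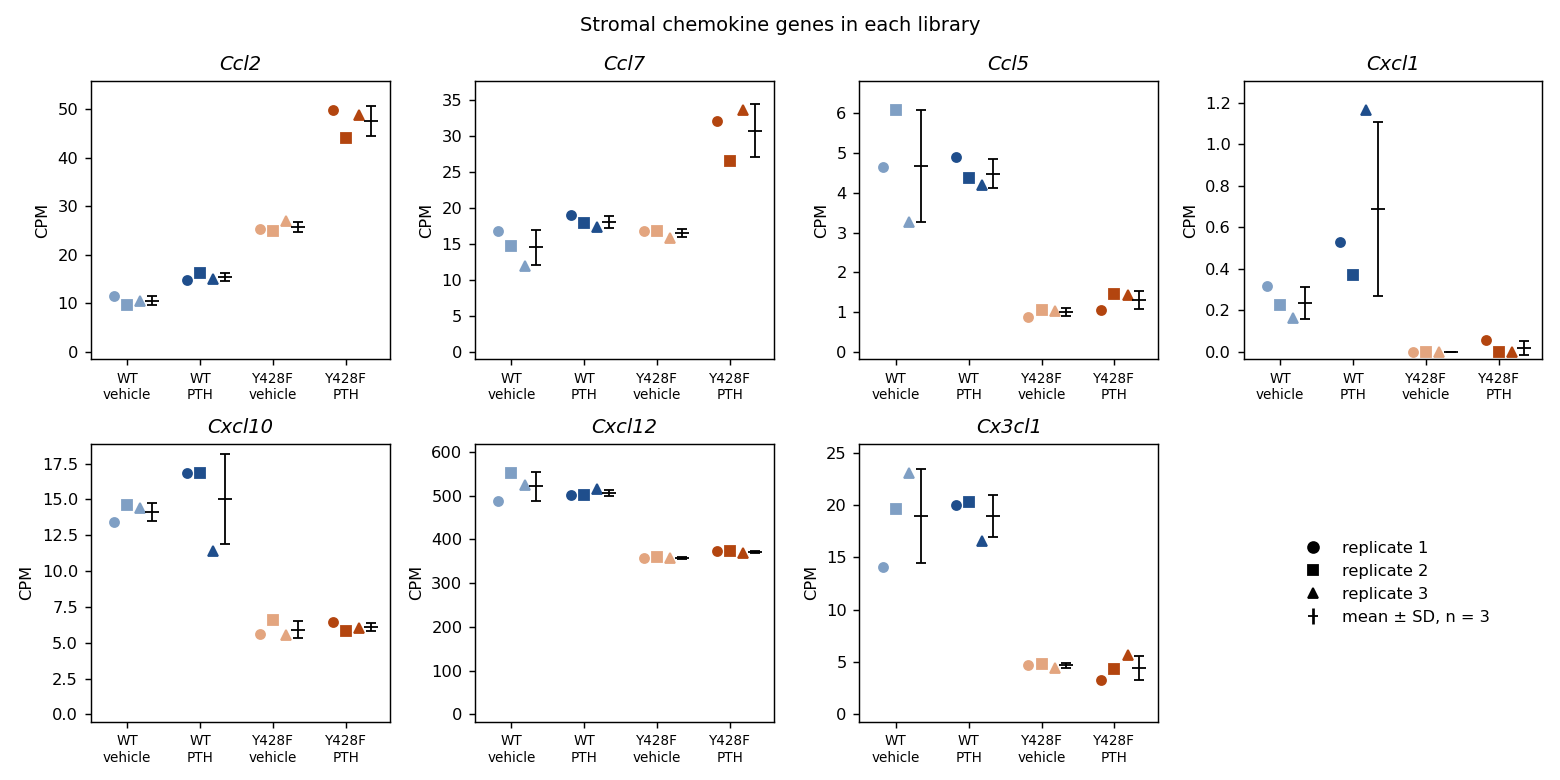
CPM of 7 chemokine genes in each of the 12 libraries, by group, with the mean ± SD of 3 libraries beside the points (linear axes from 0 that differ between genes). Ccl2 is highest in Y428F cells with PTH at 47.5 CPM, and Ccl5, Cxcl10, Cxcl12 and Cx3cl1 are lower in all 6 Y428F libraries than in any WT library.

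PTH raised Ccl2 in WT cells, and Ccl2 and Ccl7 in Y428F cells, and no other of these genes passed the test in either line. In WT cells, 1 of the 7 tested genes was called, Ccl2, with edgeR's quasi-likelihood test at a Benjamini-Hochberg adjusted p under 0.05, whereas 11.8% of 15583 genes were called, 6.88% as higher and 4.91% as lower. In Y428F cells, 2 of the 7 were called, both higher, against 12.4% of 17691 genes, 6.61% as higher and 5.78% as lower. The median log2 fold change of the 6 genes above 1 CPM was 0.05 in WT cells and 0.23 in Y428F cells, where the median of all tested genes was -0.015 and -0.007, respectively. With Cxcl1 included, the median of the 7 tested chemokine genes was 0.094 in WT cells. In Y428F cells Cxcl1 had 1 count with PTH and 0 with vehicle. The median of 0.403 that includes it there therefore says nothing more about PTH. In bulk RNA, fewer cells expressing a gene and less RNA per cell cannot be told apart.

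Ccl2, the ligand of Ccr2 on monocytes and osteoclast precursors, was at 11.5, 9.72 and 10.4 CPM in the 3 WT vehicle libraries and at 14.7, 16.3 and 15.1 CPM with PTH. All WT libraries with PTH were above all with vehicle. In Y428F cells Ccl2 was at 25.3, 24.8 and 26.9 CPM with vehicle and at 49.8, 44 and 48.8 CPM with PTH. Again the groups did not overlap, and the Y428F vehicle libraries were already above the PTH-treated WT libraries. By the fit, PTH increased Ccl2 1.46-fold in WT cells (log2 0.55, SE 0.10, edgeR adjusted p = 0.00359) and 1.85-fold in Y428F cells (log2 0.89, SE 0.08, edgeR adjusted p = 2.63e-07). Without any single library the log2 change stayed between 0.50 and 0.63 in WT cells and between 0.86 and 0.94 in Y428F cells.

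Ccl7, which shares receptors with Ccl2 and also binds Ccr1 and Ccr3, was at 16.8, 14.7 and 11.9 CPM in WT cells with vehicle and at 19, 17.8 and 17.3 CPM with PTH. The lowest value with PTH was above the highest with vehicle. Such a separation upward was seen for 14.4% of the genes tested in WT cells and downward for 14.6%, and in Y428F cells for 15.5% and 15.4%. The difference did not pass the test (log2 0.32, SE 0.12, edgeR adjusted p = 0.0963). It passed without WT vehicle replicate 1, the highest of its group (log2 0.46, edgeR adjusted p = 0.0152). In Y428F cells Ccl7 was at 16.8, 16.7 and 15.8 CPM with vehicle and at 32, 26.5 and 33.5 CPM with PTH. These groups were well apart, and the fitted increase was 1.87-fold (log2 0.90, SE 0.11, edgeR adjusted p = 1.19e-05).

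The response of Ccl2 and Ccl7 to PTH was thus larger by value in Y428F cells, but the difference between the lines did not pass the test. The interaction term was 0.35 (SE 0.12) for Ccl2, with an unadjusted p of 0.0115 and an adjusted p of 0.476 by edgeR. For Ccl7 it was 0.58 (SE 0.16), with an unadjusted p of 0.00157 and an adjusted p of 0.183 by edgeR. Of the 7 tested genes, 0 passed after adjustment with edgeR or with DESeq2, and across the transcriptome 0.413% of 17691 genes passed. An unadjusted edgeR p under 0.05 was found for 2 of the 7 genes and for 1247 of the 17691 genes. The adjusted p of Ccl7 ranged from 0.00919 to 0.481 over the alternatives. It was under the limit without a filter on low counts, and at 0.047 without WT vehicle replicate 3, the library with the lowest Ccl7 of all.

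The other chemokines did not pass the test for PTH in either line. Ccl5, which attracts T cells and monocytes, was at 4.65, 6.09 and 3.27 CPM in WT cells with vehicle and 4.89, 4.37 and 4.19 CPM with PTH, and at 0.876, 1.06 and 1.04 CPM in Y428F cells with vehicle and 1.05, 1.46 and 1.43 CPM with PTH. The vehicle and PTH libraries overlapped in both lines (log2 -0.05, SE 0.21, for WT; 0.40, SE 0.29, for Y428F). Cxcl12, the ligand of Cxcr4, was at 487, 552 and 524 CPM in WT cells with vehicle and 502, 502 and 514 CPM with PTH. In Y428F cells it was at 357, 360 and 357 CPM with vehicle and 373, 373 and 369 CPM with PTH. The fitted log2 change of Cxcl12 with PTH was -0.035 (SE 0.064) in WT cells and 0.054 (SE 0.053) in Y428F cells. In Y428F cells the 3 PTH libraries were all above the 3 vehicle libraries, by a margin too small to pass the test (edgeR adjusted p = 0.616). Cx3cl1 was at 14.1, 19.6 and 23.1 CPM in WT cells with vehicle and 20, 20.2 and 16.6 CPM with PTH, and the groups overlapped widely (log2 0.01, SE 0.14). In Y428F cells it was at 4.76, 4.85 and 4.42 CPM with vehicle and 3.33, 4.32 and 5.67 CPM with PTH, again in overlap (log2 -0.08, SE 0.20).

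Cxcl10, the ligand of Cxcr3, was at 13.4, 14.6 and 14.4 CPM in WT cells with vehicle and at 16.9, 16.9 and 11.4 CPM with PTH. The third PTH library was thus below all vehicle libraries and the other two above them. The fitted log2 change was 0.09 (SE 0.13, edgeR adjusted p = 0.732), and 0.26 without that library (edgeR adjusted p = 0.105). The same library was low for some genes of the interferon pathway, named here after their values were seen. Irf7, a factor that amplifies interferon production, had 1851, 1709 and 1016 counts in the 3 WT libraries with PTH, and Stat2, a signal transducer of interferon receptors, had 2048, 2023 and 1397. Tlr3, a sensor of double-stranded RNA, had 802, 781 and 499 counts. Irf1, in contrast, was at 41.7 to 43.4 CPM in the 3 libraries. Irf3 and Irf9 were lowest in the same library by smaller margins, Irf3 at 18 against at most 19.5 CPM and Irf9 at 76.3 against at most 85.1 CPM. Why that library stood apart was not tested. In Y428F cells Cxcl10 was at 5.64, 6.57 and 5.51 CPM with vehicle and 6.43, 5.84 and 6.06 CPM with PTH, and the groups overlapped (log2 0.05, SE 0.15).

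Cxcl1, a neutrophil chemokine, was near the detection limit. It had 6, 4 and 3 counts in WT cells with vehicle and 9, 6 and 20 counts with PTH, so that 20 of the 35 counts with PTH were from 1 library. The ratio of the summed counts after scaling was 2.95 (95% exact interval 1.52 to 6.07, for counting error only), and the difference did not pass the test (log2 1.53, SE 0.62, edgeR adjusted p = 0.138). The fitted log2 change was 0.919 to 1.84 when single libraries were left out, lowest without WT PTH replicate 3. In Y428F cells Cxcl1 had 0 counts in each vehicle library and 1, 0 and 0 with PTH, which allows no statement on PTH.

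**Figure D2:**
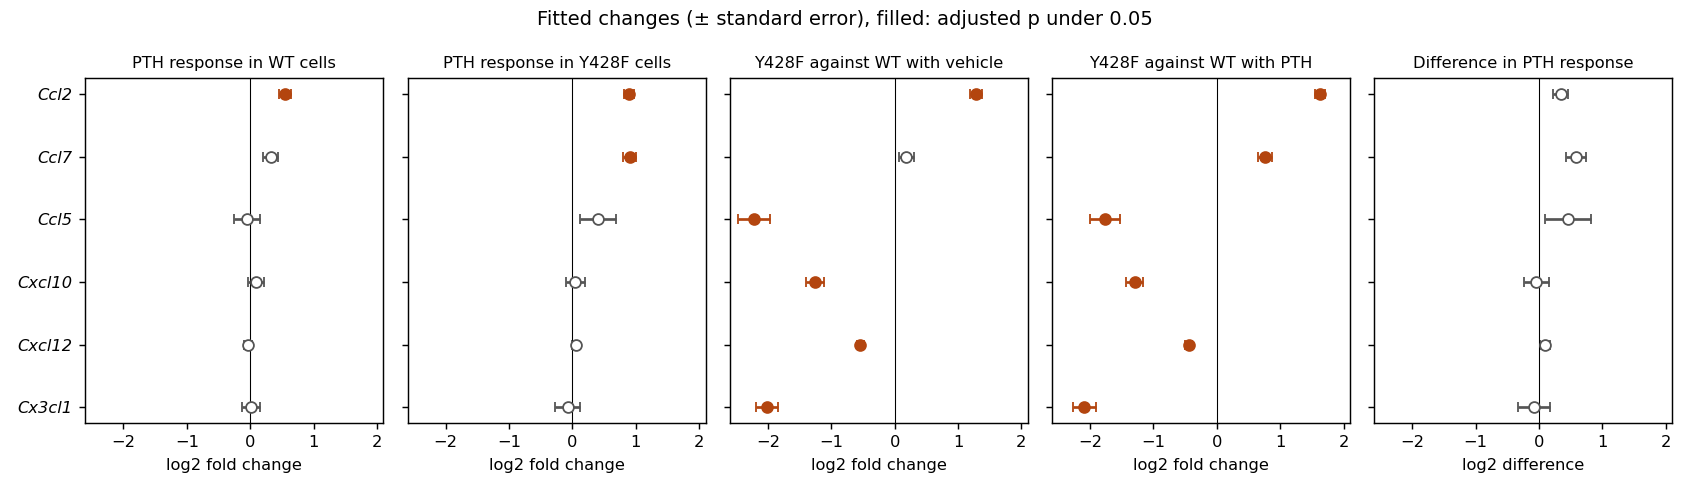
Fitted log2 fold changes (points) with standard errors (bars) of the 6 chemokine genes above 1 CPM in 5 comparisons, 3 libraries per group. Filled points passed an edgeR adjusted p under 0.05: Ccl2 and Ccl7 with PTH in Y428F cells, Ccl2 in WT cells, and most genes between the lines.

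More of the tested genes were called between the lines than between the treatments. Ccl7 ran the other way by value. Its log2 change with PTH in Y428F cells was 0.90, against line differences of 0.18 with vehicle and 0.77 with PTH. With vehicle, 6 of the 7 tested genes were called between Y428F and WT cells, 1 higher and 5 lower, where 45.1% of 17691 genes were called, 22.4% higher and 22.7% lower. In the same comparison the libraries of the lines did not overlap for 27.5% of genes as higher and 26.3% as lower. With PTH, all 7 tested genes were called, 2 higher and 5 lower. Of all genes, 45.7% were called with PTH, 22.8% higher and 23.0% lower, and 25.6% and 26.3% did not overlap in these directions. Cxcl1 is among the 5 lower genes in both treatments. It had 13 counts with vehicle and 35 with PTH in WT cells, and 0 and 1 in Y428F cells. Only the WT libraries brought Cxcl1 to the counts needed for a test, so its call adds nothing to either count. Of the 6 genes above 1 CPM, all but Ccl7 were called with vehicle, and all were called with PTH. The median log2 difference of the 6 genes above 1 CPM was -0.90 with vehicle and -0.87 with PTH, against 0.01 and 0.02 for all tested genes. These comparisons use the same libraries as the PTH comparisons and are not independent of them.

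Ccl2 was 2.43-fold higher in Y428F cells with vehicle (log2 1.28, SE 0.09, edgeR adjusted p = 2.74e-10) and 3.09-fold higher with PTH (log2 1.63, SE 0.08, edgeR adjusted p = 2.6e-12). Ccl7 did not pass the test with vehicle (log2 0.18, SE 0.12, edgeR adjusted p = 0.216), and its groups overlapped, but it was 1.7-fold higher with PTH (log2 0.77, SE 0.11, edgeR adjusted p = 6.48e-06). The ratio of Ccl2 to Ccl7 per kb was 0.734 ± 0.116 (SD, n = 3) in WT cells with vehicle and 0.848 ± 0.0698 with PTH. In Y428F cells it was 1.55 ± 0.119 and 1.54 ± 0.105. Ccl7 thus exceeded Ccl2 in every WT library, and Ccl2 exceeded Ccl7 in every Y428F library, with or without PTH.

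Ccl5, Cx3cl1, Cxcl10, Cxcl12 and Cxcl1 were lower in Y428F cells in both treatments, and their libraries did not overlap between the lines. Ccl5 with vehicle was at 4.67 ± 1.41 CPM in WT cells but at 0.992 ± 0.101 CPM in the Y428F line (mean ± SD, n = 3, log2 -2.22, SE 0.25, edgeR adjusted p = 2.35e-07). Cx3cl1 was at 18.9 ± 4.52 and 4.68 ± 0.227 CPM (log2 -2.01, SE 0.17, edgeR adjusted p = 5.43e-09). Among the 6 chemokines above 1 CPM these were the largest differences with vehicle. Cxcl10 fell from 14.1 ± 0.626 to 5.91 ± 0.577 CPM (log2 -1.25, SE 0.14, edgeR adjusted p = 1.79e-07) and Cxcl12 from 521 ± 32.9 to 358 ± 1.8 CPM (log2 -0.54, SE 0.05, edgeR adjusted p = 4.01e-08). Cxcl1, with 13 counts for WT and none for Y428F cells under vehicle, was at least 4.43-fold lower against a floor of 3 counts over the group. Its line test is not used, since only the WT libraries brought it to the counts needed. With PTH the log2 differences were -1.76 (SE 0.24) for Ccl5, -2.09 (SE 0.18) for Cx3cl1, -1.30 (SE 0.14) for Cxcl10 and -0.44 (SE 0.05) for Cxcl12. Under PTH, Cxcl1 had 35 counts for WT and 1 for Y428F cells, a ratio of 37.5 with an exact interval of 6.3 to 1520 for counting error. As 20 of the 35 counts and the single Y428F count each came from 1 library, the size of this difference rests on single libraries. The fitted log2 difference of -4.77 was -4.17 without WT PTH replicate 3 and -6.66 without Y428F PTH replicate 1. The latter value is no bound, since the Y428F group then had 0 counts.

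The balance of the chemokines differed accordingly. Cxcl12 made up 57 ± 2.53% of the summed CPM per kb of the 8 genes in WT cells with vehicle and 51.6 ± 1.79% with PTH. In Y428F cells its share was 45.4 ± 0.153% with vehicle and 32.8 ± 1.93% with PTH. Ccl2 took 10.4 ± 1.24% and 14.1 ± 0.702% in WT cells and 29.3 ± 1.17% and 37.8 ± 0.721% in Y428F cells. In Y428F cells with PTH, Ccl2 at 58.4 ± 3.85 CPM per kb was above Cxcl12 at 50.7 ± 0.358 CPM per kb, the only group in which another member exceeded Cxcl12. That order rests on annotated exon lengths of 0.813 kb for Ccl2 and 7.334 kb for Cxcl12. Before division by length, Ccl2 was at 47.5 CPM and Cxcl12 at 372 CPM in this group. The sum over the 8 genes was 124 ± 5.86 CPM per kb in WT cells with vehicle, 133 ± 2.89 with PTH, 108 ± 0.577 in Y428F cells with vehicle and 155 ± 8.39 with PTH.

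**Figure D3:**
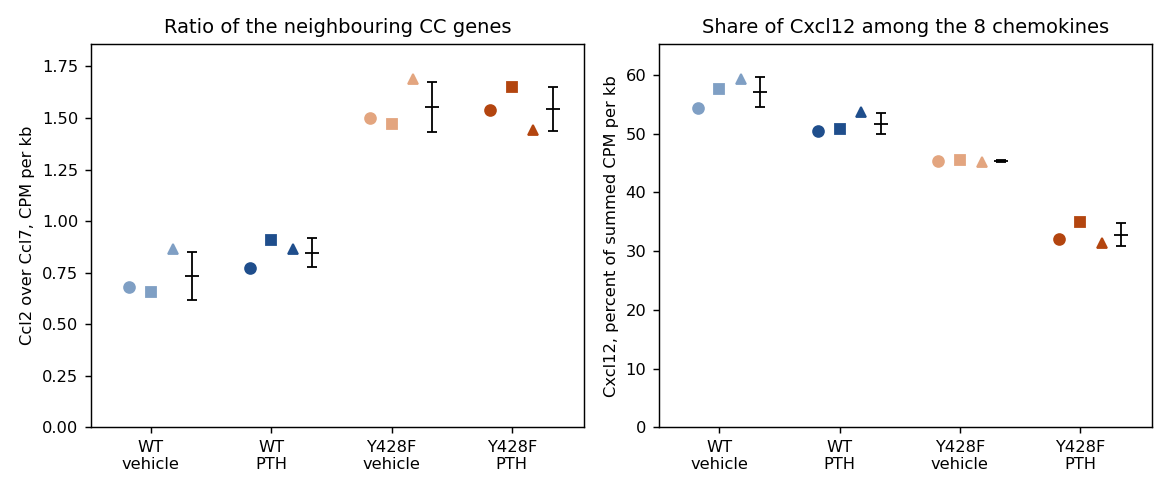
Left, ratio of Ccl2 to Ccl7 (CPM per kb) in each library; right, Cxcl12 as a percent of the summed CPM per kb of the 8 chemokine genes, with mean ± SD of 3 libraries. The ratio is under 1 in all WT and above 1 in all Y428F libraries, and the Cxcl12 share is lowest in Y428F cells with PTH at 32.8%.

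The change of each gene was set beside that of its chromosome. In Y428F against WT cells with vehicle, the median log2 difference of the 952 chromosome 11 genes above 1 CPM was 0.18, while Ccl2 was at 1.28, Ccl7 at 0.18 and Ccl5 at -2.22. The median was -0.03 over 793 genes of chromosome 5, -0.17 over 586 genes of chromosome 6 and -0.13 over 679 genes of chromosome 8, which carry Cxcl10, Cxcl12 and Cx3cl1. The chromosome medians were smaller in size than the difference of each called chemokine.

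The cells were checked against markers. Of 8 stromal markers, Col1a1, Col1a2, Col3a1, Pdgfrb and Vim were abundant, Thy1 was at 0 in all libraries, and Lum and Dcn had at most 2 and 4 counts in a library. The summed stromal markers were at 24400 to 28100 CPM in WT and 14800 to 18700 CPM in Y428F libraries, with Col1a2 the most abundant. Of 10 macrophage and leukocyte markers, 6 could be tested and 3 of them were called higher in Y428F cells with vehicle, Ly6g, Lyz2 and Ptprc, against 22.4% of all genes. Ly6g had 0 counts with vehicle and 3 with PTH in WT cells, and 996 and 946 in Y428F cells. Only the Y428F libraries brought Ly6g to the counts needed for a test, so its call adds nothing to this count. By value, 4 of the 6 tested markers were higher with vehicle and 2 lower. The lower were Csf1r, with 18 summed counts for WT and 9 for Y428F cells, and Itgam, with 8 and 1. Adgre1 and Tyrobp had 0 counts in both Y428F groups. The list's sum was 1.72 to 2.74 CPM in WT and 22.8 to 25.5 CPM in Y428F libraries. Most of the Y428F sum was Ly6g, without which it was 5.81 to 7.93 CPM, 4 or 5 of the 10 genes were at 0 in each library, and the T cell marker Cd3e was at 0 in all. The 5 endothelial markers summed to 0.91 to 1.77 CPM in WT and 6.12 to 9.94 CPM in Y428F libraries, where nearly all of it was Cdh5. The part of these markers in the line differences of the chemokines was not tested. Among vehicle libraries, Yap1 had 3375 to 3613 counts for WT and 2726 to 2793 for Y428F cells, and as the introduced copy need not be counted there, they do not check the label.

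Other ligands of the family were sparse. Of 16 other CC ligands, 2 averaged at least 1 CPM, Ccl9 and Ccl25, and 5 had 0 counts everywhere, and of 12 other CXC and XC ligands 2 did, Ppbp and Cxcl15. None of either list was called with PTH in WT or Y428F cells, where 4 and 6 CC genes and 4 and 4 CXC genes were tested and 11.8% and 12.4% of all genes were called. Between the lines with vehicle, Ppbp, the platelet chemokine precursor, went from 0.146 ± 0.0836 CPM for WT to 3.74 ± 0.241 CPM for Y428F cells (log2 4.62, SE 0.35, edgeR adjusted p = 8.01e-10). Cxcl15 (log2 1.89, edgeR adjusted p = 0.00291) and Ccl9, a ligand of Ccr1 (log2 0.49, edgeR adjusted p = 0.000913), were also higher, and Ccl17, a ligand of Ccr4, was lower with libraries that overlapped (log2 -2.23, edgeR adjusted p = 0.0252). Ccl6 was higher in Y428F than WT cells when both received PTH (log2 2.50, edgeR adjusted p = 0.00619). It had 13 summed counts in each vehicle group, 5 in WT cells with PTH and 32 in Y428F cells with PTH. Elavl1, which overlaps Ccl25 on the opposite strand, was at 90.2 CPM in WT cells with vehicle, where Ccl25 was at 11.4 CPM.

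The receptors that would read these ligands were nearly absent from the cells themselves. Of 22 chemokine receptor genes, 12 had 0 counts in all libraries, among them Ccr1, Ccr2, Cxcr2, Cxcr3 and Cx3cr1, and 1 averaged at least 1 CPM. Cxcr4, the signaling receptor of Cxcl12, had 2 counts in 1 library and 0 in the others. Ackr3, which binds and clears Cxcl12, went with vehicle from 1.07 ± 0.155 CPM for WT to 2.13 ± 0.409 CPM for Y428F cells (log2 0.98, SE 0.30, edgeR adjusted p = 0.0113). With PTH Ackr3 was not called between the lines. Ccr10, a receptor of skin-homing lymphocytes, fell with PTH in WT cells from 56 to 17 summed counts (log2 -1.57, edgeR adjusted p = 0.0488). In Y428F cells it had 59 counts with vehicle and 27 with PTH, each PTH library being below each vehicle library, and did not pass the test (log2 -1.06, edgeR adjusted p = 0.0793).

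Upstream of these genes, 14 receptors and adaptors for inducing cytokines were all expressed above 1 CPM. With PTH, 1 was higher and 1 lower in WT cells (Ifngr2, log2 0.28, and the TNF receptor Tnfrsf1b, log2 -0.43), and 2 were higher in Y428F cells, the interleukin-1 receptor Il1r1 (log2 0.43, edgeR adjusted p = 0.00537) and Tlr4 (log2 0.29, edgeR adjusted p = 0.038). Called genes were thus 2 of 14 in each line, near the 11.8% and 12.4% of all genes. Between the lines with vehicle 2 of the 14 were higher and 9 lower, against 22.4% and 22.7% of all genes, and the list median was -0.37 against 0.012. The lower genes included Tlr3 (log2 -1.88), Myd88, an adaptor of Toll-like and interleukin-1 receptors (log2 -0.85), Il6st, the shared interleukin-6 family receptor (log2 -0.79), and Tlr2 (log2 -0.93).

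Of 15 NF-kappaB factors and inhibitors, 14 were tested. In WT cells PTH raised Relb (log2 0.45, edgeR adjusted p = 0.00696) and the kinase Chuk (log2 0.31, edgeR adjusted p = 0.0136) and lowered the inhibitor Nfkbie (log2 -0.45, edgeR adjusted p = 0.0414). In Y428F cells Chuk (log2 0.31), the inhibitor Nfkbia (log2 0.33) and Nfkb1 (log2 0.22) were higher. Nfkbie did not pass the test there (log2 -0.56, SE 0.19, edgeR adjusted p = 0.0566), with each PTH library below each vehicle library. Called genes were 3 of 14 in each line, against 11.8% and 12.4% of all genes. Between the lines with vehicle 2 of the 14 were higher and 7 lower, against 22.4% and 22.7% of all genes, with a list median of -0.19 against 0.012. Tnfaip3, which ends NF-kappaB signaling, was at 14.9 ± 1.41 CPM for WT and 26.8 ± 1.31 CPM for Y428F cells (log2 0.85, SE 0.09, edgeR adjusted p = 1.7e-07). Relb (log2 -0.77), Nfkb1 (log2 -0.56) and Nfkbia (log2 -0.49) were among the lower genes.

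The IRF and STAT genes, which act on the interferon element shown in Cxcl10, were lower wherever they were called. Of 8 tested, 4 fell with PTH in WT cells and none rose, where 4.91% of all genes were called lower, and the list's median log2 change was -0.33 against -0.015 over all genes. Irf1, which directly activates Cxcl10, was at 61.9 ± 4 CPM with vehicle and 42.7 ± 0.892 CPM with PTH (log2 -0.53, SE 0.07, edgeR adjusted p = 0.000444), and Stat2 (log2 -0.49), Irf3 (log2 -0.36) and Irf9 (log2 -0.30) were the others. Stat2, Irf3 and Irf9 were lowest in WT PTH replicate 3, the library that stood apart for Cxcl10, so the size of their fall rests in part on that library. In Y428F cells 2 fell against a background of 5.78%, Stat2 (log2 -0.68, edgeR adjusted p = 0.00124) and Irf9 (log2 -0.43, edgeR adjusted p = 0.00089). Between the lines with vehicle 6 were lower and none higher, against 22.7% of all genes lower, and the list median was -1.32 against 0.012. Irf7 was at 91.7 ± 5.83 CPM for WT and 5.08 ± 0.585 CPM for Y428F cells (log2 -4.17, SE 0.19, edgeR adjusted p = 2.83e-13), Stat2 at 153 ± 4.41 and 29.5 ± 1.59 CPM (log2 -2.38, SE 0.12, edgeR adjusted p = 8.9e-13) and Irf9 at 102 ± 7.18 and 27.2 ± 1.33 CPM (log2 -1.91, SE 0.07, edgeR adjusted p = 1.45e-14). With PTH 5 were lower and none higher, against 23.0% of all genes lower.

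**Figure D4:**
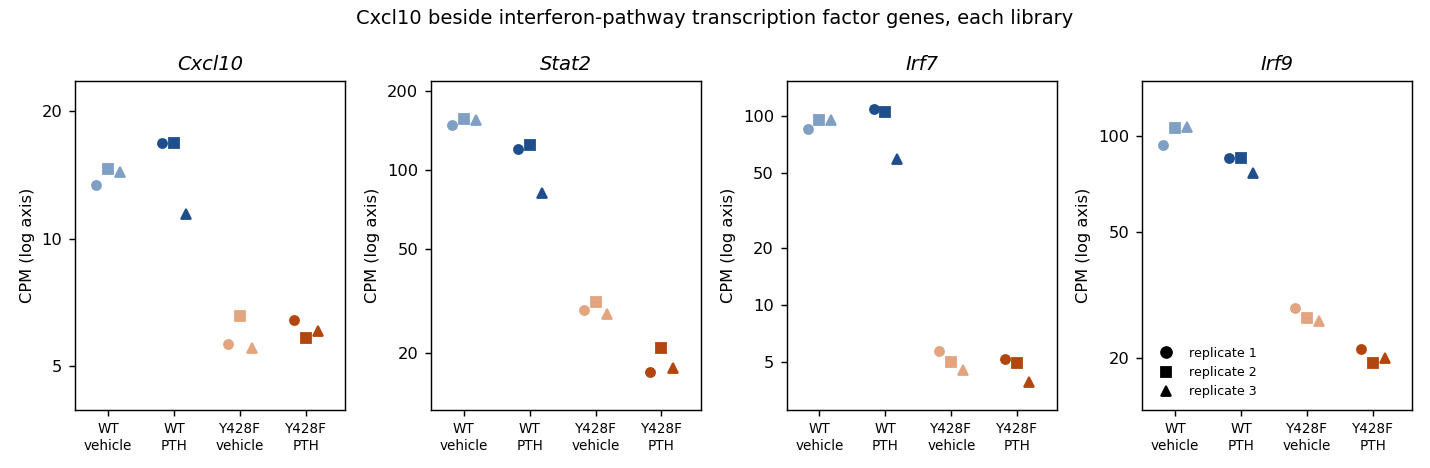
CPM (log axis) of Cxcl10 and of the transcription factor genes Stat2, Irf7 and Irf9 in each library, with replicates marked by shape. All 4 genes are lower in all 6 Y428F libraries than in any WT library, and replicate 3 of WT cells with PTH lies below the other two in each panel.

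Of 8 genes that set the stability of chemokine transcripts, PTH changed 2 in the WT and 1 in the Y428F line, against 11.8% and 12.4% of all genes. In WT cells Arid5a, which stabilizes inflammatory transcripts, rose with PTH (log2 0.56, edgeR adjusted p = 0.00558) and Zfp36, tristetraprolin, which marks AU-rich transcripts such as Ccl2 for decay, fell (log2 -0.30, edgeR adjusted p = 0.0461). In Y428F cells Arid5a had a log2 change of -0.28 that did not pass the test, and Zfp36l2 rose (log2 0.47, edgeR adjusted p = 9.29e-05). Between the lines with vehicle 2 were higher and 4 lower, against 22.4% and 22.7% of all genes, with a list median of -0.24 against 0.012 and Zfp36 among the lower (log2 -0.52, edgeR adjusted p = 0.000219).

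Of the proteases that cut chemokines, 0 of 6 tested were called with PTH in each line, where 11.8% and 12.4% of all genes were called, so these counts are too small to set them apart. In Y428F against WT cells under vehicle, 4 of 6 tested were lower and none higher, against 22.7% and 22.4% of all genes, and the list median was -0.74 against 0.012. These were Mmp14 (log2 -0.88, edgeR adjusted p = 4.55e-09), Mmp9 (log2 -2.16, edgeR adjusted p = 1.28e-07), Mmp2 (log2 -0.61, edgeR adjusted p = 0.0127) and Adam10, which sheds Cx3cl1 from the membrane (log2 -0.30, edgeR adjusted p = 0.000206).

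Of 12 stromal niche genes tested, the company of Cxcl12 in the marrow, 8 were lower and 2 higher in Y428F cells with vehicle, against 22.7% and 22.4% of all genes, and the list median was -0.37 against 0.012. Vcam1, an adhesion molecule of stromal cells, went from 158 ± 9.34 CPM for WT to 46.6 ± 1.98 CPM for Y428F cells (log2 -1.76, SE 0.06, edgeR adjusted p = 3.88e-15). Angpt1 (log2 -2.67), Pdgfra (log2 -1.59) and Pdgfrb (log2 -1.51) were the next by p. The 2 higher genes were Lepr and Nes. Lepr was at 0.143 ± 0.108 CPM for WT and 1.03 ± 0.0407 CPM for Y428F cells with vehicle, and Nes at 0.18 ± 0.0795 and 1.76 ± 0.603 CPM. Kitl, at 132 ± 11.5 and 119 ± 3.12 CPM, and Foxc1, at 227 ± 12.4 and 214 ± 12.4 CPM, differed little. With PTH, Pdgfra fell in WT (log2 -0.59, edgeR adjusted p = 0.00146) and Y428F cells (log2 -0.73, edgeR adjusted p = 7.17e-05), and Kitl, the stem cell factor, fell in WT cells (log2 -0.23, edgeR adjusted p = 0.0403).

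The members' own patterns over the 12 libraries were compared. Ccl2 and Ccl7 had a Pearson r of 0.846 on log2 CPM, and pairs among Ccl5, Cxcl10, Cxcl12 and Cx3cl1 had r between 0.942 and 0.969. Against the latter 4, r was -0.886 to -0.817 for Ccl2 and weaker, -0.584 to -0.414, for Ccl7. These values describe 12 libraries that share 2 lines and 2 treatments, and no correlation within a line was computed. Among 12037 genes above 1 CPM, the patterns most like Ccl2 were those of Fez2 (r = 0.993), Ctps1 (0.992) and Chka (0.992), and most like Ccl7 those of Cacul1 (0.971), Eif5 (0.957) and Tbk1 (0.946). Ccl5 was most like Gkap1 (0.985), Dhx36 (0.983) and Rab8b (0.982), and Cxcl10 like Tor1aip1 (0.993), Gbp2 (0.992) and Tor3a (0.992). Cxcl12 was most like Maf (0.995), Gnpda1 (0.993) and Vps11 (0.993), and Cx3cl1 like Plxna3 (0.996), Cdh13 (0.994) and Glb1 (0.993).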

How the data were processed

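RNA was taken from W-20 cells after 2 h with 50 nM PTH or vehicle. The authors aligned reads with STAR 2.7.10b to GRCm39 with GENCODE vM31 and deposited RSEM expected counts, not scaled, for 12 libraries. Groups follow the library titles. The expected counts were rounded, and 56236 of 56980 gene identifiers matched GENCODE vM39, which gave names, positions and exon lengths. Genes with at least 10 counts in total were tested with edgeR 4.0.16 (R 4.3.3), TMM scaling, quasi-likelihood tests and Benjamini-Hochberg adjustment over all genes, with PTH in WT cells fitted on the 6 WT libraries and the other comparisons on all 12. The fit was tested on simulated data. Genes named are the 8 members and up to 4 called genes per list and comparison by p. The 3 genes most correlated with each member above 1 CPM were also named. Outside these rules were markers, receptors at or near 0, Ccl25, Yap1, overlapping genes, and the interferon genes of 1 WT library. The niche genes Lepr, Nes, Kitl and Foxc1 with vehicle were outside them too. All of these were named after their values were seen. The members and lists were chosen with earlier results of these data known. Alternatives were DESeq2 1.42.0, other scalings, other filters, a replicate block and leaving out each library. Some genes of the lists are not reported here.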

Additional observations from a re-analysis of the deposited data

How the results depend on the processing

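Of the counts of called chemokine genes, those for PTH in Y428F cells (2) and between the lines with vehicle (6) and with PTH (7) were within 1.5 times under every alternative run. The counts between the lines include Cxcl1, whose call adds nothing to them. The count for PTH in WT cells was 1, 2 without a filter on low counts, and 1 to 2 when single libraries were left out, Ccl7 being the gene added without WT vehicle replicate 1. The count for the difference in response was 0, 1 without a filter, and 0 to 1 when single libraries were left out, again with Ccl7 added, without WT vehicle replicate 3. A replicate block left all 5 counts as they were (1, 2, 6, 7 and 0). Libraries with the same number had residual correlations of -0.11 to 0.19, so the numbers were not taken as pairs. Signs turned only for changes that did not pass the test. For PTH in WT cells Cx3cl1 (0.007) was at -0.05 with library totals only, and without single libraries it ran from -0.155 to 0.182, Ccl5 from -0.243 to 0.188 and Cxcl12 from -0.069 to 0.014. In Y428F cells Cx3cl1 ran from -0.29 to 0.097. For the difference, Cx3cl1 ran from -0.299 to 0.089 and Cxcl10 from -0.208 to 0.057. Between the lines with vehicle, Ccl7 passed without WT vehicle replicate 1 (log2 0.31, edgeR adjusted p = 0.0405). The causes were not tested. Over all genes, the 1837 calls for PTH in WT cells were 1132 and 1045 without vehicle replicate 2 or 3 and 905 and 1060 without PTH replicate 1 or 2. These came from a fit on the 6 WT libraries, and with all 12 libraries in the fit there were 2375. The order of the WT and Y428F call counts thus depends on the fit. The 2192 calls for PTH in Y428F cells were 1435 without vehicle replicate 1. The 73 calls for the difference were 124 with DESeq2, 216 without a filter, and 24 to 46 without WT vehicle replicate 3, WT PTH replicate 1 or 2, any Y428F vehicle library or Y428F PTH replicate 3. Cxcl1 had at most 20 counts in a library and Cxcl5 had none, so their values carry the largest counting error.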
